A study of Mus musculus and Ictidomys tridecemlineatus with 36 samples.

Results

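The Wnt ligands, their Frizzled receptors and the secreted Sfrp and Dkk inhibitors were described here from CUT&RUN peak lists of the P2 mouse retina. The genes were chosen by name alone, as the autosomal protein-coding genes of GENCODE M21 whose symbols are those of the numbered Wnt, Fzd, Sfrp and Dkk families. This gave 37 of 20807 genes: 19 Wnt ligands, 10 Frizzled receptors, 4 Sfrp and 4 Dkk genes. The rule used no measured value, though earlier results of these data were known when it was set. The split within the set ran along these roles. All 10 *Fzd* genes had an H3K4me3 peak at a promoter, against 3 of 19 *Wnt* genes (15.8%) and 57.1% of all genes. Each of the other 16 *Wnt* genes had H3K4me1 there with neither H3K4me3 nor H3K27ac, where 12.6% of all genes had H3K4me1 or H3K27ac without H3K4me3. This state was not particular to the ligands. The same class held 5 of 6 endothelial and mural cell marker genes and 4 of 5 lens marker genes, but 0 of 5 for microglia and blood.

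CUT&RUN cuts and releases the DNA around an antibody bound to a histone mark or a protein, and a peak is a stretch where more fragments were released than with the IgG control antibody. The study set mouse retina beside retina of the 13-lined ground squirrel (13LGS), and the mouse lists come from 20 libraries of whole retina at postnatal day 2. There were 2 biological replicates, each pooled from 3 mice. Every histone mark and the IgG control was read in 2 libraries, Neurod1 was read in 4, and Otx2 in 8, of which 4 used an R&D Systems antibody and 4 an Atlas Antibodies one. The labels give no strain, genotype or treatment for these mice. By the labels, the groups differ in the antibody and in the number of libraries. The paper names 2 library preparation kits and does not say which library used which. The 13LGS lists are on another assembly and were not used here. Each mouse list gives 1 fold enrichment over IgG per peak for all libraries of a target together, so no value below has a replicate spread, no difference could be tested, and read depth is unknown. The share over the 20807 genes stands beside the counts that are compared with it, as a description.

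H3K4me3 typically marks the start of genes that are transcribed or held ready for transcription, H3K27ac marks active promoters and enhancers, and H3K4me1 alone is typical of enhancers and of the flanks of promoters. Otx2 is a homeodomain TF required for photoreceptor fate, and Neurod1 is a bHLH TF of photoreceptor precursors. The tissue label was checked with marker genes. Both H3K4me3 and H3K27ac lay at a promoter of 21.2% of all genes, and at one of each of the 10 retinal regulators reported here, such as *Crx* and *Nrl*. Both marks lay together at 0 of 6 pigment epithelium genes, 1 of 6 endothelial and mural cell genes (*Kdr*), 0 of 5 microglia and blood genes, 0 of 5 lens genes and 0 of 3 astrocyte genes. Single marks did occur there. H3K4me3 lay at 2 of 6 pigment epithelium genes (*Pmel*, 11.3-fold, and *Mitf*, 6.63-fold) and 1 of 3 astrocyte genes (*Pdgfra*, 4.40-fold). These values fall within the range of the *Fzd* genes (3.04-fold to 40.5-fold). H3K27ac lay at *Tyrp1* (3.44-fold) of the pigment epithelium list and at *Aqp4* (5.41-fold) of the astrocyte list. In a whole retina, a mark carried by few cells and a weak mark carried by many cannot be told apart.

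In the canonical Wnt pathway, a secreted Wnt ligand binds a Frizzled receptor and the co-receptors Lrp5 and Lrp6, and β-catenin then escapes degradation and acts with Tcf and Lef factors on target genes. Sfrp proteins carry a Frizzled-like domain and bind ligands outside the cell, whereas Dkk1, Dkk2 and Dkk4 act through Lrp5 and Lrp6. Dkk3 is a divergent member of its family. In the eye, Wnt signalling is known for patterning the ciliary margin and the pigment epithelium, and Fzd4 with its ligand norrin for the growth of retinal blood vessels.

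The upstream sequence of 3 genes is shown first because it contrasts gene starts that are all rich in CG but differ in their marks. Each is a stretch of 240 bases that ends 11 bases before the RefSeq start (GRCm38.p6), written in the direction of transcription with every CG in capitals. *Fzd5* (chr1:64737761-64738000, minus strand) holds 29 CG and lies under H3K4me3 and Otx2 peaks, and a Neurod1 peak only meets its upstream end. *Wnt11* (chr7:98834862-98835101, plus strand) holds 34 CG and lies under H3K4me1 alone. *Wnt9a* (chr11:59306680-59306919, plus strand) holds 46 CG and lies under no peak of any of the 5 lists.
Fzd5 upstream: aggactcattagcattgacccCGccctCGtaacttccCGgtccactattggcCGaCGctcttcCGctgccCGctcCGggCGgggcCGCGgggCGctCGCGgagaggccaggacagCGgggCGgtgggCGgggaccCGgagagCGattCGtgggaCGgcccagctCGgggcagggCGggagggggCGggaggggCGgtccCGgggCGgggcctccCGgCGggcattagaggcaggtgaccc
Wnt11 upstream: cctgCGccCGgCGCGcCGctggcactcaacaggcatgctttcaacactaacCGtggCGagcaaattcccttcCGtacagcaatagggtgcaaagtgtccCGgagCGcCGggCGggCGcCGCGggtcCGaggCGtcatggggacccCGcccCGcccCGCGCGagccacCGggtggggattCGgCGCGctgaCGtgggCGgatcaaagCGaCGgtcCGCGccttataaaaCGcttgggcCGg
Wnt9a upstream: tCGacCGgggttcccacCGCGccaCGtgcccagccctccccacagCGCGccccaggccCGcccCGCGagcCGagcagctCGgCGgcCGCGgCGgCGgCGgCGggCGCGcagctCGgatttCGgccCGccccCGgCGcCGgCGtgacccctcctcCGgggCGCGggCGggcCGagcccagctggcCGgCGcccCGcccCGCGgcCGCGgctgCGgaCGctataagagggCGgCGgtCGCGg

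The Otx2 and Neurod1 peaks with the highest fold enrichment in or around the 37 genes are shown next, 1 per gene and 3 per TF, because only 1 of the 6 lies at a promoter. Each is the 300 bases around the summit on the plus strand of GRCm38. The letters TAATCC (or GGATTA on the other strand), a motif of Otx2 and Crx, are in capitals in the Otx2 peaks, and CAGATG (or CATCTG), an E-box bound by bHLH factors such as Neurod1, in the Neurod1 peaks. The Otx2 peak of *Fzd4* (chr7:89403938-89404237) lies 267 bp upstream of the gene and holds no TAATCC. The Otx2 peak of *Wnt5b* (chr6:119491956-119492255) lies in an intron, 52241 bp from the 5′ end of the gene record, and that of *Wnt1* (chr15:98798115-98798414) lies downstream of the gene. The Neurod1 peak of *Wnt9a* (chr11:59308038-59308337) and that of *Wnt10a* (chr1:74797475-74797774) lie in introns, and that of *Wnt3a* (chr11:59238963-59239262) lies downstream.
Fzd4 Otx2: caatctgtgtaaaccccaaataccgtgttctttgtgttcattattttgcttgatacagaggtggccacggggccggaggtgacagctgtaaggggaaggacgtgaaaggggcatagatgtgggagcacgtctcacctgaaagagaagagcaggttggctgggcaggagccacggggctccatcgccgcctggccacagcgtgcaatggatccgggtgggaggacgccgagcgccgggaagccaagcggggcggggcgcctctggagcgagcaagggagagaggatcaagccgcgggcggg
Wnt5b Otx2: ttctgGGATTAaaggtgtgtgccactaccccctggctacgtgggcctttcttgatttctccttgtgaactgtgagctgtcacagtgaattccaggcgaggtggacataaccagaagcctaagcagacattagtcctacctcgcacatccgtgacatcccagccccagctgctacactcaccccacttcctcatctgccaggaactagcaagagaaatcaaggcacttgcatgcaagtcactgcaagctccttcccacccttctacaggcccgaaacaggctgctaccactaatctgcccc
Wnt1 Otx2: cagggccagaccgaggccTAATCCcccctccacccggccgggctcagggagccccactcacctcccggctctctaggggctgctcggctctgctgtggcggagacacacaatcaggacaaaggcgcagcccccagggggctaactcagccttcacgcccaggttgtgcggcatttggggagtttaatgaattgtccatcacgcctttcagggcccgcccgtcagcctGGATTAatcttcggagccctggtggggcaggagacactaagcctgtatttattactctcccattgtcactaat
Wnt9a Neurod1: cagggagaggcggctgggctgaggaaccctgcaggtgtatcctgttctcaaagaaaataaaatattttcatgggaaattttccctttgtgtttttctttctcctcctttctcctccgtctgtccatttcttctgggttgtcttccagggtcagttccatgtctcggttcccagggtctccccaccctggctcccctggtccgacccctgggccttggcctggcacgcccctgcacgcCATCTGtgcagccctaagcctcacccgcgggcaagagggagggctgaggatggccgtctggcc
Wnt10a Neurod1: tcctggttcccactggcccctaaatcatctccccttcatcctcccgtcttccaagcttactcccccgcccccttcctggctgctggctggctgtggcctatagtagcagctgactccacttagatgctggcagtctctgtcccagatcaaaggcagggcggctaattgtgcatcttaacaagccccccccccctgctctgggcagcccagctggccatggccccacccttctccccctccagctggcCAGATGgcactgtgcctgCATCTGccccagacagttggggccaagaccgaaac
Wnt3a Neurod1: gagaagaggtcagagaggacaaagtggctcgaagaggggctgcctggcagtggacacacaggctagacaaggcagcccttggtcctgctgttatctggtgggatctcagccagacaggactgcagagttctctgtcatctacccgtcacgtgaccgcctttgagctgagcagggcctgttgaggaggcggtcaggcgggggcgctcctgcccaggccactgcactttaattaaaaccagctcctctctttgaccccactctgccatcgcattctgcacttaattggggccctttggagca

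A promoter peak was any peak with a base within 1 kb of the TSS of any transcript of the gene. H3K4me3 lay at a promoter of 18 of the 37 genes (48.6%, against 57.1% of all genes), and H3K27ac at 3 (8.11%, against 23.1%). H3K4me1 lay at 35 (94.6%, against 64.8%). Otx2 had a promoter peak at 13 of the genes (35.1%, against 52.2%) and Neurod1 at 2 (5.41%, against 6%). The share with H3K4me3 was thus near that of all genes, with fewer H3K27ac and Otx2 promoters and more H3K4me1 promoters. The H3K4me3 peaks were also low. The median of the highest promoter fold was 7.18 over the 18 genes and 17.6 over all genes with such a peak, and 3 of the 18 (*Dkk3*, *Fzd5* and *Fzd3*) reached the latter value.

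**Figure D1:**
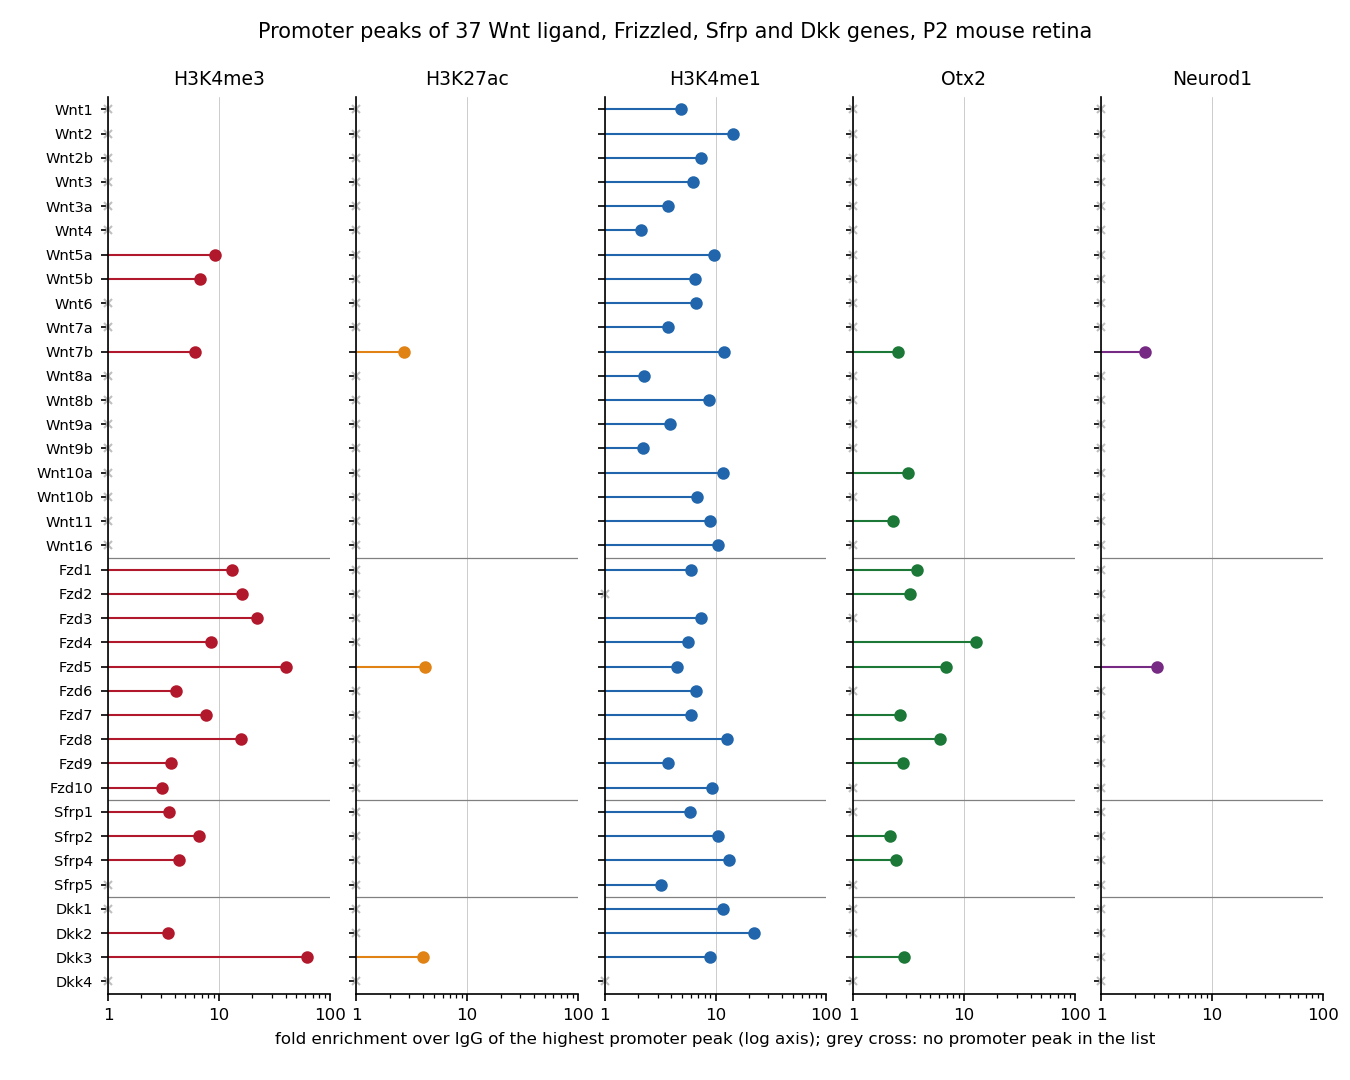
Fold enrichment over IgG of the highest promoter peak (log x axis) for each of the 37 genes (y axis, families separated by lines) and each of the 5 targets; points are the pooled value of all libraries, and a grey cross marks a gene without a promoter peak in the list. H3K4me3 is present in all 10 *Fzd* rows and 3 of 19 *Wnt* rows, H3K4me1 in 35 rows, and H3K27ac in 3.

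The *Wnt* ligands were the family with least H3K4me3. Only *Wnt5a* (9.31-fold), *Wnt5b* (6.77-fold) and *Wnt7b* (6.10-fold) had it at a promoter. Wnt5a and Wnt5b are ligands mostly of the β-catenin-independent branch, and Wnt7b is a ligand known from brain vessel growth. All 3 values are low for this mark: between 77.4% and 87.9% of genes with promoter H3K4me3 had a peak at least as high. *Wnt7b* (chr15:85535437-85582473) was the one ligand with all 5 targets at a promoter, though not all at the same start. Its H3K27ac peak (2.68-fold, −log10 q of 2.15) lay in an intron within 1 kb of the start of an internal transcript, 16041 bp into the gene, and is not a promoter peak when only protein-coding transcripts are counted. Its Otx2 peak (2.55-fold) and its Neurod1 peak (2.48-fold) overlapped just upstream of the gene. In *Wnt5b*, the strongest H3K4me3 peak of the gene body (56.8-fold) lay at the start of *Fbxl14*, which falls in a *Wnt5b* intron, and was not counted for the *Wnt5b* promoter.

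The other 16 ligands, *Wnt1*, *Wnt2*, *Wnt2b*, *Wnt3*, *Wnt3a*, *Wnt4*, *Wnt6*, *Wnt7a*, *Wnt8a*, *Wnt8b*, *Wnt9a*, *Wnt9b*, *Wnt10a*, *Wnt10b*, *Wnt11* and *Wnt16*, had H3K4me1 as the one histone mark at a promoter. The promoter H3K4me1 peak of *Wnt2*, a ligand known from lung and vessel development, was the highest of all *Wnt* genes at 14.3-fold, spanned 3176 bp and covered the gene start. *Wnt10a* (10.98-fold) and *Wnt16* (10.5-fold) also had broad peaks over the start, of which that of *Wnt16* was the only H3K4me1 peak in or within 10 kb of the gene. The highest promoter H3K4me1 peak of *Wnt10a* (11.8-fold) lay inside the gene and began 1408 bp from its 5′ end. At the low end, *Wnt4* (2.14-fold), *Wnt9b* (2.20-fold) and *Wnt8a* (2.26-fold) barely entered the list, and all 3 left it when a −log10 q of at least 5 was asked for. No *Wnt* gene was without a histone peak at a promoter. The H3K4me1 peak of *Wnt8b* (8.67-fold) lay only at an internal start, however. *Wnt8b* had no promoter histone peak when only protein-coding transcripts or the gene 5′ end were used.

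The Frizzled receptors were marked throughout. Their H3K4me3 peaks ran from 3.04-fold at *Fzd10* to 40.5-fold at *Fzd5*, with a median of 10.9. Between these lay *Fzd3* (22.1-fold), *Fzd2* (16.3-fold), *Fzd8* (15.9-fold), *Fzd1* (13.3-fold), *Fzd4* (8.48-fold), *Fzd7* (7.60-fold), *Fzd6* (4.13-fold) and *Fzd9* (3.71-fold). The lowest of these were also narrow, with 450 bp at *Fzd10* and 454 bp at *Fzd9* against 7820 bp at *Fzd5*, and *Fzd9* and *Fzd10* lost theirs at a −log10 q of at least 5. H3K4me1 accompanied H3K4me3 at 9 of the 10, from 3.70-fold at *Fzd9* to 12.6-fold at *Fzd8*. The exception was *Fzd2*, where the nearest H3K4me1 peak began 1101 bp downstream of the start, just outside the limit.

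*Fzd5*, a receptor known from eye field and optic cup development, was the Frizzled gene with all 5 targets at a promoter (chr1:64730558-64737751). Its H3K4me3 peak was 7820 bp wide and covered most of the short gene. Its H3K27ac promoter peak was 4.13-fold and lay upstream, next to 4 narrower H3K27ac peaks over the gene body. The Otx2 peak (6.96-fold) was 3610 bp wide, and its summit lay upstream of the start, 6 bp from that of the Neurod1 peak (3.21-fold). Among genes with an Otx2 promoter peak, 11.2% had one at least as high.

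The highest Otx2 promoter peak of the set was that of *Fzd4* (chr7:89404355-89413134), at 12.8-fold with a −log10 q of 148. Of the genes with an Otx2 promoter peak, 1.01% had one at least as high. This promoter is shared with the start of *Tmem135*, a gene transcribed in the other direction, and a peak between the starts cannot be given to one of them. *Fzd8* (6.15-fold), *Fzd1* (3.78-fold), *Fzd2* (3.27-fold), *Fzd9* (2.81-fold) and *Fzd7* (2.68-fold) also had Otx2 at the promoter, which made 7 of 10 Frizzled genes, against 3 of 19 *Wnt* genes (*Wnt7b*, *Wnt10a* at 3.14-fold and *Wnt11* at 2.32-fold) and 52.2% of all genes. The 6.15-fold Otx2 peak of *Fzd8* began 848 bp inside the gene, and the Otx2 peak that covered the start of *Fzd8* was 2.99-fold. The Otx2 peak of *Wnt11* had a −log10 q of 2.04 and began 3023 bp inside the gene, at an internal start. It was not a promoter peak when only the gene 5′ end was used. The Frizzled share was not above that of genes with H3K4me3 and H3K4me1 but no H3K27ac at a promoter, of which 82.4% had Otx2. *Fzd3*, *Fzd6* and *Fzd10* had none. The Otx2 peak that lay upstream of *Fzd3* (6.10-fold) was at the start of *Fbxo16*.

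The inhibitors were mixed. *Dkk3* (chr7:112116017-112159057) had the highest promoter H3K4me3 of the set (62.4-fold, 4972 bp wide), a value that 1.62% of genes with such a peak reached, together with H3K27ac (3.98-fold), H3K4me1 (8.91-fold) and Otx2 (2.91-fold). *Dkk2* was the reverse: its H3K4me1 peak (22.0-fold) was the highest of the set, reached by 1.01% of genes with promoter H3K4me1, and its H3K4me3 peak was 3.49-fold and 536 bp wide. *Dkk1*, an inhibitor known from head formation, had H3K4me1 (11.7-fold) and no H3K4me3. *Dkk4* was the one gene of the 37 with no promoter peak of any target, and the one peak of any list within 10 kb of it was an H3K27ac peak (3.39-fold) downstream of the gene.

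Among the *Sfrp* genes, *Sfrp2* (6.62-fold), *Sfrp4* (4.33-fold) and *Sfrp1* (3.58-fold) had low H3K4me3 beside H3K4me1 at 10.6-fold, 13.1-fold and 5.83-fold. *Sfrp5* had H3K4me1 alone (3.22-fold). Otx2 peaks lay at the promoters of *Sfrp4* (2.46-fold) and *Sfrp2* (2.17-fold), and the latter had a −log10 q of 1.34, close to the limit of the list. The stronger H3K4me3 peak near *Sfrp4* (16.8-fold) was at the start of its neighbour *Epdr1*. No *Sfrp* promoter had H3K27ac or Neurod1.

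The 5 combinations of histone peaks at the promoter sum this up. H3K4me3 with H3K27ac was found at 3 of the 37 genes (8.11%, against 21.2% of all genes), namely *Wnt7b*, *Fzd5* and *Dkk3*. *Wnt7b* left this class when only protein-coding transcripts or the gene 5′ end were used. H3K4me3 with H3K4me1 but no H3K27ac was found at 14 (37.8%, against 32.1%), and H3K4me3 alone at 1, *Fzd2* (2.7%, against 3.71%). Neither H3K4me3 nor H3K27ac but H3K4me1 was found at 18 genes, the 16 ligands with *Sfrp5* and *Dkk1* (48.6%). The same class over all genes, which there also admits H3K27ac without H3K4me3, held 12.6%. Among the marker lists, it held 5 of 6 endothelial and mural cell genes (83.3%), 4 of 5 lens genes (80%) and 2 of 3 astrocyte genes. It held 1 of 6 pigment epithelium genes, 0 of 5 microglia and blood genes and 0 of the 10 retinal regulators. No histone peak was found at 1 of the 37 genes (2.7%, against 30.4%). Since 30.4% of all genes had no histone peak at a promoter, the comparison was repeated over genes with at least 1, where the H3K4me1 class held 50% of the members and 18.1% of all genes.

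**Figure D2:**
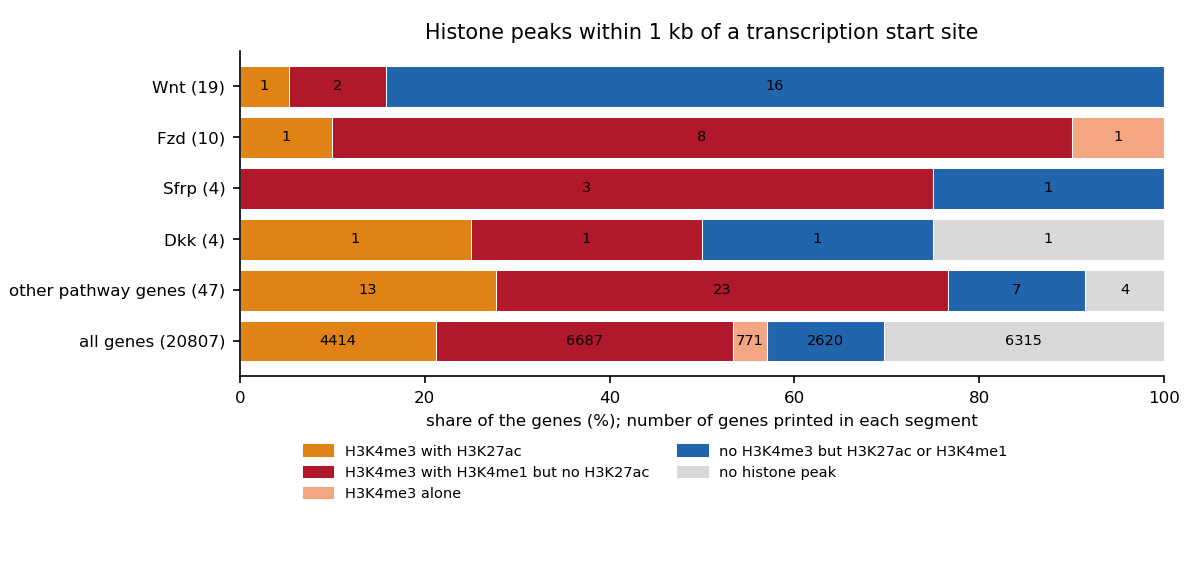
Share of genes (x axis, percent) in each of 5 classes of promoter histone peaks, by family (y axis, number of genes in brackets), for 47 other pathway genes and for all 20807 genes; the number in each segment counts its genes. The class without H3K4me3 takes 16 of 19 *Wnt* genes, 0 of 10 *Fzd* genes and 2620 of all genes.

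Among genes with both H3K4me3 and H3K4me1, the placement of H3K4me1 at the gene 5′ end differed from that over all genes. Around an active start, H3K4me1 usually flanks H3K4me3 and leaves the start itself free. Of the 14 genes with H3K4me3 and H3K4me1 but no H3K27ac, an H3K4me1 peak covered the 5′ end of the gene at 9 (64.3%, against 27.9% of all genes in this class), and an H3K4me3 peak covered it at 9 (64.3%, against 82.8%). The peaks that cover the start of *Fzd7* and *Sfrp2* are 8669 and 6232 bp wide. Among the 18 genes with H3K4me1 and no H3K4me3, the start was covered at 10 (55.6%, against 59.6%), a share like that of all genes in the class. The classes use any start, whereas coverage was read at the 5′ end alone. The 37 genes had a median of 1 start and all genes 3, which lowers the shares of all genes. Whatever the class, H3K4me1 covered the 5′ end at 56.8% of the 37 genes and 22.4% of all genes. It covered any start at 62.2% and 35.5%.

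**Figure D3:**
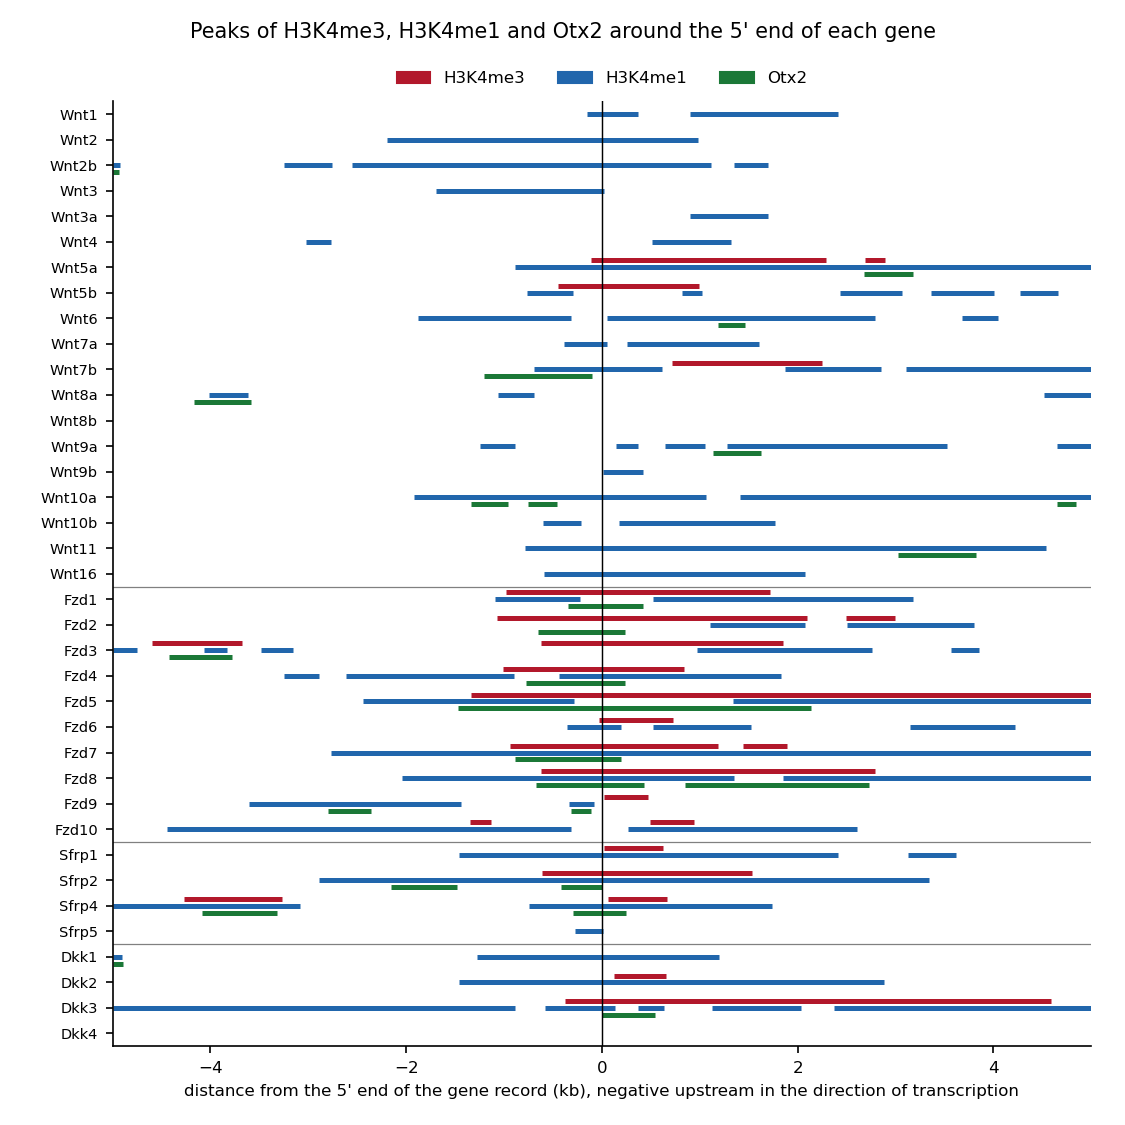
Peaks of H3K4me3 (red), H3K4me1 (blue) and Otx2 (green) within 5 kb of the 5′ end of the gene record (x axis in kb, negative upstream) for each of the 37 genes (y axis); bars span the deposited peaks, and bars that reach the edge go on beyond it. H3K4me1 covers the start of *Wnt2*, *Wnt10a*, *Wnt11*, *Wnt16* and *Dkk1* with no H3K4me3 in view, and flanks H3K4me3 at *Fzd1* and *Fzd5*.

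The marks were compared with base composition, which the choice of genes did not use. Observed over expected CpG was taken over the 500 bp on each side of the 5′ end of the gene, and 0.6 is a common limit for CpG islands. It was at least 0.6 at 26 of 37 genes (70.3%, against 47.2% of all genes), including 10 of 10 *Fzd*, 13 of 19 *Wnt* and 3 of 8 *Sfrp* and *Dkk* genes. The 18 genes with H3K4me1 and no H3K4me3 had a median of 0.646, against 0.388 for all genes of that class, with *Wnt9a* (0.997), *Wnt4* (0.859) and *Wnt11* (0.818) at the top and *Wnt8a* (0.254) at the bottom. The 14 genes with H3K4me3 and H3K4me1 had a median of 0.826, against 0.741. *Dkk3* and *Wnt7b*, which had both H3K4me3 and H3K27ac, lay at 0.425 and 0.455, below 12 of the 16 ligands without H3K4me3. The promoter H3K27ac of *Wnt7b* lay at an internal start, away from the 5′ end measured here. RefSeq windows from 250 bases before to 50 after the start were at hand for 25 of the genes. They held a median of 26.5 CG in 28 windows, against 7 in all 32851 RefSeq windows, which are not matched to the genes used above. *Wnt5b* and *Wnt11* gave several windows each. No window was at hand for *Dkk3*, *Dkk4*, *Sfrp4*, *Wnt7b*, *Wnt8a* and *Wnt10a*, which lay below 0.6. Nor was one at hand for *Fzd2*, *Fzd3*, *Fzd6*, *Fzd8*, *Sfrp1* and *Wnt5a*, which lay above it.

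**Figure D4:**
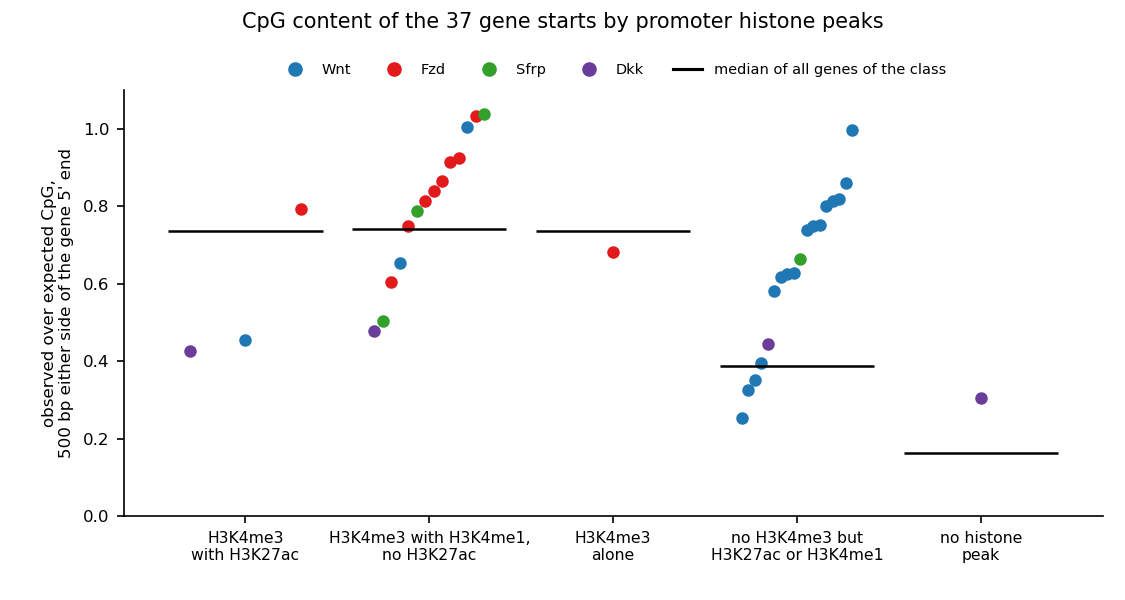
Observed over expected CpG within 500 bp of the gene 5′ end (y axis) for each of the 37 genes, coloured by family and placed by promoter histone class (x axis; points are spread sideways in order of value); black lines are the medians of all genes of each class. In the class without H3K4me3, 15 of 18 genes lie above the line at 0.388, and *Dkk3* and *Wnt7b* lie below the line of theirs.

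Peaks around the genes were counted in the gene body plus 10 kb on each side. H3K4me1 lay in this window at 36 of the 37 genes (97.3%, against 79.1% of all genes), all but *Dkk4*. The median density was 12.2 H3K4me1 peaks per 100 kb, against 6.68 over all genes, and the highest densities were those of *Fzd4* (24.3 per 100 kb, 7 peaks), *Dkk3* (23.8 per 100 kb, 15 peaks) and *Wnt6* (20.9 per 100 kb, 7 peaks). Of these peaks, 2 of *Fzd4* and 2 of *Wnt6* lay within 1 kb of another gene's start, and 4 of *Wnt6* also fell in the *Wnt10a* window. Outside promoters, the H3K4me1 peak with the highest fold enrichment was an intronic one of *Fzd6* (18.2-fold, 5315 bp wide), and the 4 H3K27ac peaks of this gene all lay within it. *Wnt5a* had a single H3K4me1 peak, which ran over 8576 bp from its upstream region into the gene.

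H3K27ac lay in this window at 11 of the 37 genes (29.7%, against 47.7% of all genes), with 47 peaks in all, of which 19 were in *Dkk3*. The windows of the set are of ordinary length, with a median of 33431 bp against 37629 bp. *Dkk3* had 30.1 H3K27ac peaks per 100 kb, a density reached by 0.332% of all genes, and its H3K27ac peaks covered 39925 bp, or 63.3%, of its window. The highest of them (8.95-fold, 5336 bp wide) lay in an intron, 14030 bp from the start at its summit, and overlapped an Otx2 peak of 6.77-fold. Of the 4 Otx2 peaks of *Dkk3*, each overlapped H3K27ac.

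The next densities were 18.4 per 100 kb at *Fzd5* (5 peaks), 13.5 at *Fzd9* (3 peaks), 8.95 at *Wnt7b* (6 peaks) and 7.67 at *Fzd6* (4 peaks). At *Fzd6* and *Wnt7b*, all of these peaks were intronic and overlapped H3K4me1, and the highest of *Wnt7b* (5.37-fold, 2559 bp wide) also overlapped an Otx2 peak of 3.43-fold. At *Fzd9* the peaks lay outside the gene, and 1 of the 3 was at the start of *Baz1b*. *Wnt5b* had 4 H3K27ac peaks, 1 of them at the start of *Fbxl14*. *Dkk2* had 2, and *Wnt2b*, *Sfrp1*, *Sfrp4* and *Dkk4* had 1 each, that of *Sfrp4* at the start of *Epdr1*. The other 26 genes had none.

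**Figure D5:**
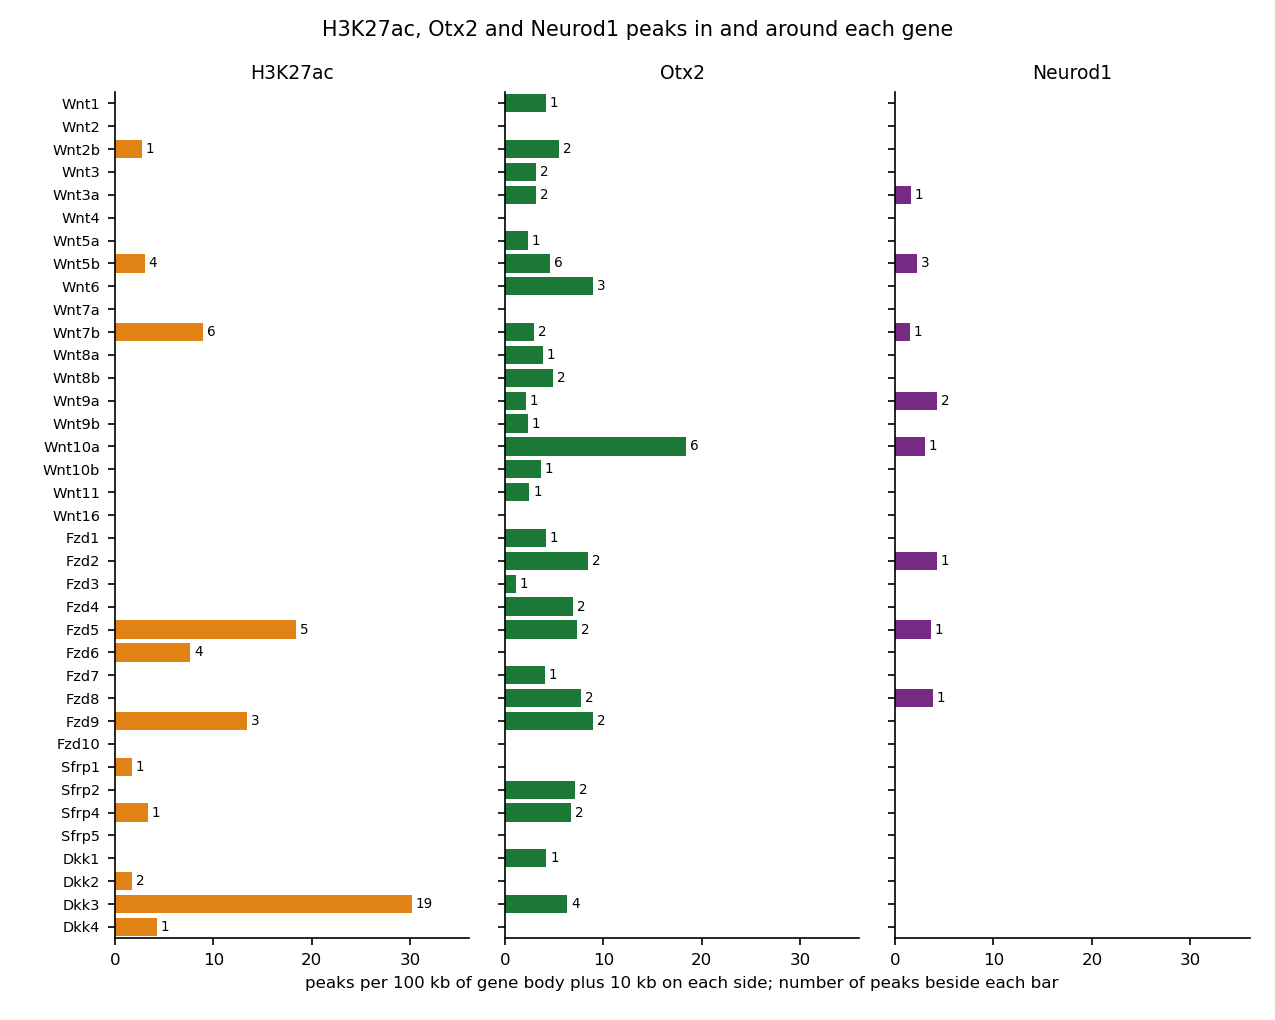
Peaks of H3K27ac, Otx2 and Neurod1 per 100 kb of gene body plus 10 kb on each side (x axis) for each of the 37 genes (y axis); bars give the density and the number beside each bar the count of peaks. *Dkk3* stands out for H3K27ac with 19 peaks, *Wnt10a* for Otx2 with 6, and Neurod1 peaks are found at 8 genes.

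Otx2 peaks lay in the window of 27 of the 37 genes (73%, against 66.4% of all genes), and Neurod1 peaks in that of 8 (21.6%, against 16%). Both shares are near those of all genes. *Wnt10a* had the densest Otx2 peaks, with 6 in its window or 18.4 per 100 kb, a density that 1.03% of all genes reached. All 6 overlapped H3K4me1 and neither H3K4me3 nor H3K27ac, and 2 of them also fell in the window of its neighbour *Wnt6*. *Wnt5b* also had 6 Otx2 peaks in a window of 131817 bp, 2 of them at the start of *Fbxl14*.

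The TF peaks were then set against the histone lists. Of the 52 distinct Otx2 peaks in the windows, 26 (50%) overlapped H3K4me1 and no other histone mark, against 27.1% of the 28550 autosomal Otx2 peaks. A further 21 (40.4%, against 42.8%) overlapped H3K4me3, 5 (9.62%, against 22.8%) overlapped H3K27ac without H3K4me3, and 0 lay outside histone peaks, against 7.27%. Of the 11 Neurod1 peaks, 6 overlapped H3K4me1 alone (54.5%, against 28.7% of 4698) and 1 overlapped H3K27ac without H3K4me3 (9.09%, against 40.3%). The autosomal sets, here and below, were not confined to gene windows, as the peaks of the members were. Of them, 22485 of 28550 Otx2 peaks and 3615 of 4698 Neurod1 peaks lay in the window of any of the 20807 genes.

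Most Neurod1 peaks lay with Otx2, but most Otx2 peaks lay without Neurod1. Of the 11 Neurod1 peaks, 9 overlapped an Otx2 peak (81.8%, against 82% of all autosomal Neurod1 peaks), a share close to that of the list. Of the 52 Otx2 peaks, 9 overlapped a Neurod1 peak (17.3%, against 13.2%). The Neurod1 peaks without Otx2 lay in introns of *Wnt9a* (3.55-fold) and *Wnt5b* (3.85-fold). The Neurod1 peaks of *Wnt5b* that overlapped Otx2 were 3.19-fold and 4.20-fold. Of the 3 Neurod1 peaks in the *Wnt5b* window, 1 lay within 1 kb of the start of another gene. In the intron of *Wnt10a*, Neurod1 (4.92-fold) and Otx2 (6.19-fold) had summits 104 bp apart. In *Wnt9a*, 1260 bp from the start, Neurod1 (6.37-fold) and Otx2 (4.08-fold) had summits 57 bp apart. Downstream of *Wnt3a*, Neurod1 (4.51-fold) and Otx2 (6.74-fold) had summits 114 bp apart.

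The printed summits show how often the motifs were met. TAATCC was found, on either strand, within the 300 bases around 13 of the 52 Otx2 summits (25%), against 18.2% of all 28550 autosomal Otx2 peaks. CAGATG was found around 5 of the 11 Neurod1 summits (45.5%), against 52.2% of 4698. In the *Wnt1* peak (6.99-fold), 2 copies of TAATCC lie 129 and 80 bp from the summit, and in that of *Wnt5b* (8.87-fold) 1 lies 142 bp from it. In the Neurod1 peak of *Wnt10a*, 2 copies of CAGATG lie 100 and 118 bp from the summit, and in that of *Wnt9a* 1 lies 90 bp from it. The Otx2 peak of *Fzd4* and the Neurod1 peak of *Wnt3a* held none in these windows.

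Several ligands lie next to each other in pairs known from the ancient Wnt gene cluster. *Wnt6* and *Wnt10a* lie 6193 bp apart on the same strand, and their windows shared 4 H3K4me1 and 2 Otx2 peaks. *Wnt1* and *Wnt10b* lie 11706 bp apart on opposite strands, and *Wnt3a* and *Wnt9a* 16175 bp apart, and neither pair shared a peak. Within each pair both genes had H3K4me1 and no H3K4me3 at the promoter. In the *Wnt10b* window, the 1 H3K4me3 peak (22.4-fold) was at the start of *Arf3*.

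The other genes of the pathway, 47 taken from a list by role, were more often marked than the ligands. H3K4me3 lay at a promoter of 36 (76.6%, against 57.1% of all genes) and Otx2 at 33 (70.2%, against 52.2%). The counts for H3K27ac, 13 (27.7%, against 23.1%), and for Neurod1, 2 (4.26%, against 6%), were near the shares of all genes. All 12 genes of the cytoplasmic steps (the Dvl, Axin, Apc, Gsk3, casein kinase, β-catenin and Nkd genes) and all 7 nuclear genes (Tcf, Lef, Bcl9 and Pygo) had H3K4me3. Their medians were 32.3-fold and 14.7-fold, against 10.9-fold for the Frizzled genes. Of the co-receptors and other receptors, 5 of 6 had it, from *Lrp5* (17.6-fold) to *Lrp6* (41.9-fold), and *Ror2* had H3K4me1 alone.

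The agonists, their receptors and the further inhibitors had fewer marked promoters than the cytoplasmic and nuclear genes, with H3K4me3 at 5 of 10 (50%) and 6 of 10 (60%), shares near the 57.1% of all genes. H3K4me3 was missing at *Rspo1*, *Rspo3*, *Rspo4*, *Lgr6* and *Rnf43* among 10 agonist and agonist receptor genes. It was also missing at *Sost*, *Sostdc1*, *Kremen2* and *Dkkl1* among 10 further inhibitors, and at *Wls*, whose product carries Wnt ligands to the cell surface and which had H3K4me1 at 12.9-fold. *Rspo3*, an R-spondin that boosts Wnt signalling, had the highest H3K4me1 of the list at 19.0-fold. *Frzb*, which encodes the protein also called Sfrp3, had H3K4me3 at 4.05-fold and H3K4me1 at 15.7-fold.

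The highest promoter H3K27ac of the pathway list was at *Gsk3b* (6.49-fold), *Kremen1* (6.31-fold) and *Csnk1a1* (4.57-fold), and the first encodes a kinase that marks β-catenin for degradation. Otx2 lay at all 12 genes of the cytoplasmic steps, from *Axin1* (2.24-fold) to *Axin2* (9.27-fold), a widely used target gene of the pathway. It also lay at 6 of 7 nuclear genes (2.84-fold to 6.29-fold), 4 of 6 co-receptors and other receptors (4.28-fold to 5.64-fold) and the target gene *Sp5* (3.26-fold). Of the agonists and their receptors 5 of 10 had Otx2 (2.31-fold to 4.65-fold), and of the further inhibitors 5 of 10 (2.52-fold to 4.47-fold). Neurod1 lay at *Ptk7* (5.19-fold) and *Kremen1* (2.60-fold). Over all genes, Otx2 promoter peaks went with H3K4me3: 95.3% of genes with H3K4me3 and H3K27ac had one, 82.4% of those with H3K4me3 and H3K4me1 but no H3K27ac, and 19.6% of the class without H3K4me3. In the 37 genes it was 3 of 3, 7 of 14 and 2 of 18 in these classes, and *Fzd2* had one as well.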

How the data were processed

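The mouse files hold peaks of CUT&RUN libraries from P2 retina. The authors trimmed reads with cutadapt 3.5 and Trim Galore 0.6.4, aligned them to GRCm38 with Bowtie2, filtered them with SAMtools 1.12, removed duplicates with UMI-tools, merged technical replicates and called peaks per target with MACS2 jointly across replicates against IgG at a q-value of 0.05. The deposited fold enrichment is a ratio to IgG, and the deposited significance is a −log10 q-value. Both were used as they are. Blacklisted and mitochondrial regions had been removed. IgG enters as the control of each call, and its own values were not used here. H3K27me3 and H3K9me3 were not analysed here.

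Peaks were joined to GENCODE M21 genes (any TSS ± 1 kb, gene body ± 10 kb, at least 1 bp shared) in Python 3.11.15 with numpy 2.4.6 and pysam 0.24.0 and plotted with matplotlib 3.10.9, and the joins gave the intervals that bedtools 2.31.1 gives on simulated data. Motifs were read from 300 bases around each summit on GRCm38, and promoter windows from RefSeq (GRCm38.p6). The members, the pathway list and the marker lists were chosen with earlier results of these data known. *Porcn*, *Ndp* and *Gata1* of these lists are X-linked and were left out, and 1 gene of the retinal marker list is not reported here. With 1 pooled list per target there were no replicates, so no test was run. Named genes are each Fzd, Sfrp and Dkk gene, each gene with a promoter Otx2 or Neurod1 peak, the 3 highest promoter peaks per target, the 5 highest H3K27ac densities, the *Wnt* genes with promoter H3K27ac, and members with overlapping windows, and in the pathway list those with a promoter Neurod1 peak, the 3 highest for H3K27ac and those without H3K4me3. The 33 pathway genes with promoter Otx2 are given by their range. Other genes were named after their values were seen.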

Additional observations from a re-analysis of the deposited data

How the results depend on the processing

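No paired analysis was possible because each list pools the libraries of its target. For the same reason no replicate was left out. H3K4me1 is the longest list, with 135798 peaks against 14069 for H3K4me3, so its counts are to be read against the share of all genes and not against H3K4me3. A gene without a peak is below the threshold of a list of unknown depth, which does not show that the mark is absent.

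Of 144 recomputed counts and shares, 112 stayed within 1.5 times the value reported and 32 did not. The 3 *Wnt* genes with promoter H3K4me3 numbered 3 under each of the 8 alternatives, and the 10 *Fzd* genes were 8 when peaks had to cover a TSS or reach a −log10 q of 5, and 10 otherwise. With peaks that cover a TSS, promoter H3K27ac fell to 0 genes (11.2% of all genes had it), H3K4me1 to 23 (62.2%, against 35.5%; 12 of them *Wnt*), Otx2 to 8 (21.6%, against 45%) and Neurod1 to 0 (2.83% of all genes), and there were 0 genes with H3K4me3 and H3K27ac, 4 with H3K4me3 alone and 10 with no histone peak. With summits only, these classes held 1, 5 and 6 genes, and Neurod1 lay at 1. Neurod1 also lay at 1 promoter under the limit of 5 on −log10 q, a fold of at least 2.5 or a distance of 500 bp, and at 4 with 2.5 kb. H3K4me3 alone was found at 2 genes with 500 bp and at 0 with 2.5 kb. No histone peak was found at 5 genes under the limit on −log10 q, 4 with a fold of at least 2.5, 4 with 500 bp, and 2 with protein-coding transcripts or the gene 5′ end only. Under that limit, the H3K27ac peaks of the windows fell from 47 to 20. In gene bodies alone there were 119 H3K4me1, 31 Otx2 and 7 Neurod1 peaks. With 50 kb on each side there were 63 H3K4me3, 108 H3K27ac, 413 H3K4me1, 121 Otx2 and 18 Neurod1 peaks. The shares of peaks with a motif were 25% for Otx2 and 44.4% for Neurod1 under the same limit, a setting added after the data were seen. The number of targets at the promoter of single genes stayed within 1.5 times the reported one in 250 of 296 settings.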
